A study of Mus musculus with 12 samples.

Results

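The genes described here are the cyclins and kinases that carry a cell through G1, together with the pocket proteins on which they act. They were chosen by name, with earlier results of these data known, so their counts of calls beside all genes are descriptions. The 10 genes are the D-type cyclins Ccnd1, Ccnd2 and Ccnd3, the E-type cyclins Ccne1 and Ccne2, the kinases Cdk2, Cdk4 and Cdk6, and the pocket proteins Rb1 and Rbl1. All 10 were found among the 19336 named loci of the mouse count table, and all 10 passed the filter on low counts, which left 15656 genes to test. Each gene is given by its level in every library and by its difference between treatments.

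RNA was sequenced from primary hippocampal neuron cultures of WT mice, prepared at postnatal day 4 and kept 8 days in culture before treatment per the deposited design text. Elsewhere the study gives both the age and the days in culture as ranges that run a day longer. The 4 groups were DAPT + sErbB4 (20 µM DAPT, then 20 nM sErbB4 for 4 h), DAPT (20 µM DAPT, then PBS), sErbB4 (DMSO, then 20 nM sErbB4 for 4 h) and vehicle (DMSO, then PBS), with 3 libraries each. DAPT inhibits γ-secretase, the membrane protease that releases the intracellular domains of Notch receptors, of neuregulin 1 (Nrg1) and of many other proteins. sErbB4 is a recombinant soluble ectodomain of ErbB4, a receptor for Nrg1, described as a mouse ErbB4 Fc chimera in the study's methods and as human in another place, and was used to trigger back signaling by Nrg1 in the neurons that carry it. The study set DAPT + sErbB4 against sErbB4 to ask which genes respond to the nuclear arm of that signaling. DAPT exposure before sErbB4 is given as overnight in one place and as a full day in another. Each library came from a separate plating, and the platings of a condition drew on several mice and litters.

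In G1, growth signals raise D-type cyclins, which bind and activate Cdk4 and Cdk6. These kinases phosphorylate Rb and its relatives, E2F transcription factors are then freed from the pocket proteins, and E2F target genes, among them the E-type cyclins that activate Cdk2, carry the cell into S phase. In the developing hippocampus D-type cyclins mark dividing precursors, Ccnd2 is required for neurogenesis in the adult dentate gyrus, and neurons that have left the cycle keep some of these genes at low levels.

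Levels are in CPM (counts per 1000000 counts on named loci), scaled between libraries by TMM, a method that sets the bulk of genes equal. The deposited values behave as corrected for transcript length, so levels of different genes can be set side by side per length. A gene is called changed where the edgeR quasi-likelihood test gave a Benjamini-Hochberg adjusted p under 0.05 over all genes tested and a log2 fold change above 0.32 in size, the limit given in the study's methods. The mean DAPT effect is the average of the DAPT difference without sErbB4 and with it. Libraries held 18.7 to 30.8 counts on named loci in units of 1000000, of which the ribosomal precursor Rn45s took 31.4 to 44.6%. The library sErbB4 replicate 1 stood apart from its group on both leading principal components (-1.94 against -28.6 and -28.2 on the first). So did vehicle replicate 3 (-15.3 against -27.1 and -35.9 on the first, 30.2 against 0.43 and -11.1 on the second). Neuron markers were present in every library, as were markers of glia and of dividing cells, so the cultures were mixed. In such bulk samples, fewer cells of a type and less RNA per cell cannot be told apart.

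Across the 12 libraries, 9 of the 10 genes were lower in every DAPT library than in every library without DAPT, and Rb1 was the exception. Of all genes tested, 11.8% were lower in this non-overlapping way. For DAPT vs vehicle, 5 of the 10 were called lower (Ccnd1, Ccnd2, Ccnd3, Cdk2 and Rbl1) and none higher, against 6.92% of all genes called lower and 4.66% called higher. For DAPT + sErbB4 vs sErbB4, 7 of the 10 were called lower (the same 5 with Ccne1 and Ccne2) and none higher, against 7.15% and 4.55% of all genes. The median log2 fold change of the 10 genes was -0.47 and -0.53 in these comparisons, beside 0.01 over all genes tested in each.

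**Figure D1:**
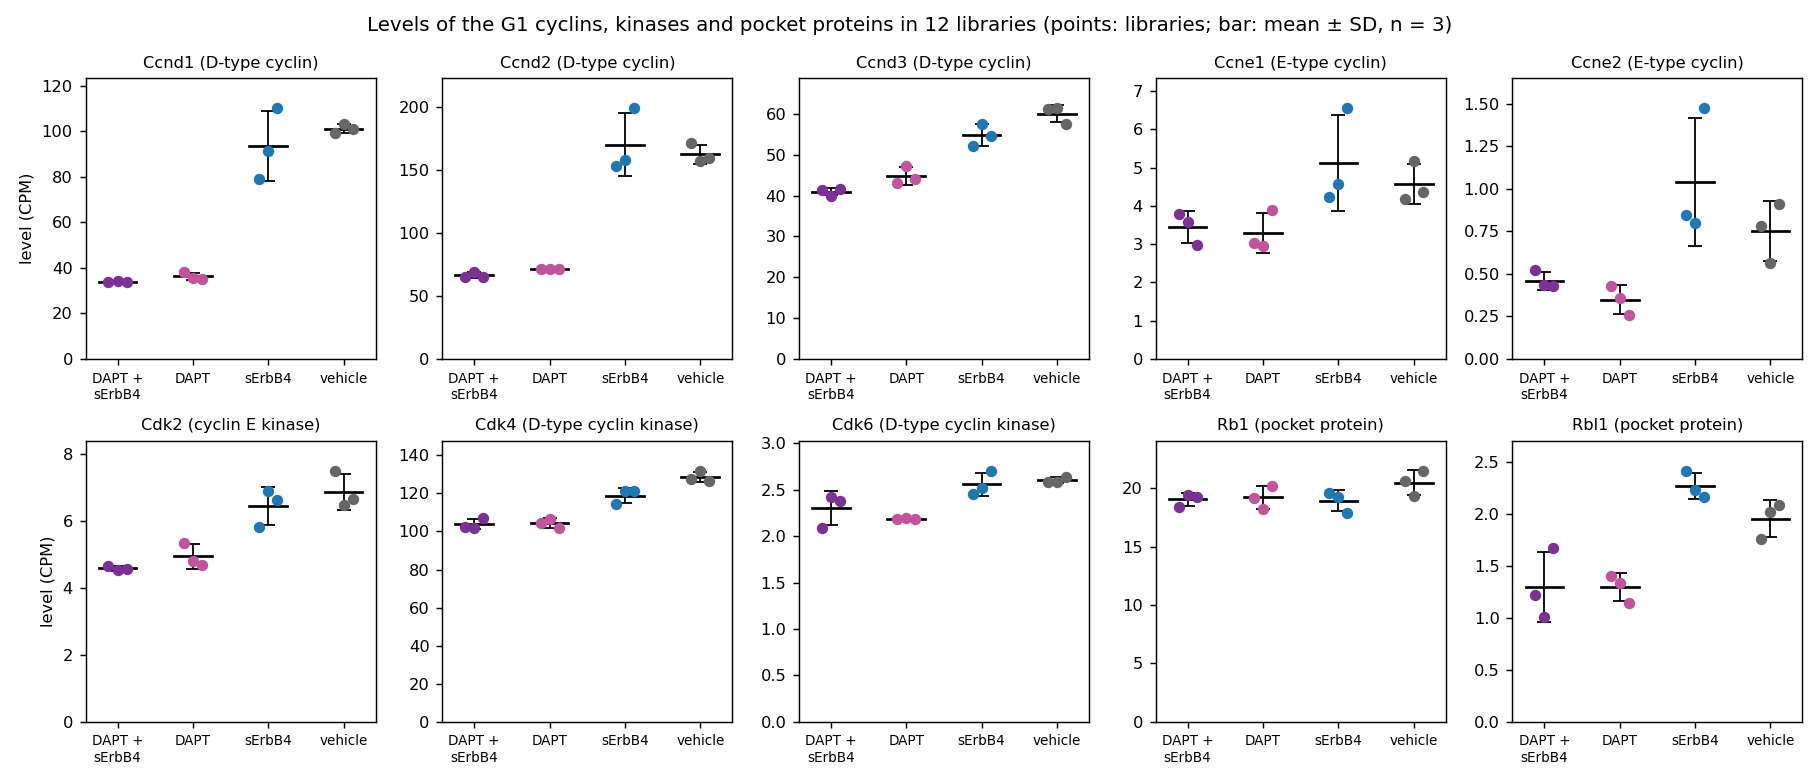
Level of each gene in CPM (y axis, linear, from 0) in the 4 treatment groups (x axis), with points for single libraries and bars for the mean ± SD of 3 libraries. For every gene except Rb1, all 6 points of the DAPT + sErbB4 and DAPT groups lie below all 6 points of the sErbB4 and vehicle groups.

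The D-type cyclins Ccnd1 and Ccnd2 had the largest log2 fold changes of the 10 genes for DAPT vs vehicle, DAPT + sErbB4 vs sErbB4 and the mean DAPT effect. Ccnd1 encodes cyclin D1, the D-type cyclin most directly induced by mitogens, and lies on the minus strand at chr7:144929931-144939925 (GRCm38, GENCODE vM21). Ccnd2, which encodes cyclin D2, lies on the minus strand at chr6:127125162-127152193, and Ccnd3, which encodes cyclin D3, on the plus strand at chr17:47505051-47599691. All are protein-coding genes. Their coding sequences are similar, 70.06% identical between Ccnd1 and Ccnd2, 66.43% between Ccnd1 and Ccnd3 and 68.9% between Ccnd2 and Ccnd3. The longest run that Ccnd1 and Ccnd2 share is shown because these genes moved together and a read within a shared run could be assigned to either. It is 20 bases long, shorter than the 75-base reads, and no 75-base stretch was shared among the 10 genes. Capitals mark the shared run inside 30 coding bases of an exon of each gene, from chr7:144939537-144939566 (minus strand) and chr6:127150623-127150652 (minus strand) of GRCm38.
Ccnd1: cttacTTCAAGTGCGTGCAGAAGGAgattg
Ccnd2: cctatTTCAAGTGCGTGCAGAAGGAcatcc

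Ccnd1 had 33.6, 34.1 and 33.7 CPM in DAPT + sErbB4 cultures and 38.1, 35.4 and 35.2 CPM in DAPT cultures, against 79.2, 91.4 and 109.9 CPM in sErbB4 cultures and 99.4, 103.0 and 100.9 CPM in vehicle cultures. The highest library with DAPT, at 38.1 CPM, was thus far below the lowest without it, at 79.2 CPM. In log2 terms Ccnd1 differed by -1.48 ± 0.09 (SE) for DAPT vs vehicle (edgeR adjusted p = 9.7e-07) and -1.47 ± 0.09 for DAPT + sErbB4 vs sErbB4 (edgeR adjusted p = 9.8e-07), a level 2.79 and 2.76 times lower. The spread was widest in sErbB4 cultures (SD 15.5 CPM, against 1.84 CPM in vehicle cultures), where replicate 3 was highest and replicate 1 lowest. Without sErbB4 replicate 1 the second difference was -1.57, and without replicate 3 it was -1.33.

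Ccnd2 was the most abundant D-type cyclin in every group. Its level was 65.1, 69.2 and 65.4 CPM in DAPT + sErbB4 cultures and 71.1, 71.4 and 71.7 CPM in DAPT cultures, against 153.1, 158.2 and 198.7 CPM in sErbB4 cultures and 171.1, 157.0 and 159.3 CPM in vehicle cultures. Groups with and without DAPT were again far apart, and sErbB4 replicate 3 was again the highest library. Ccnd2 differed by -1.19 ± 0.08 for DAPT vs vehicle (log2 scale, edgeR adjusted p = 2.2e-06) and by -1.35 ± 0.08 for DAPT + sErbB4 vs sErbB4 (edgeR adjusted p = 8e-07). Without sErbB4 replicate 3 the second of these was -1.22.

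Ccnd3 fell by less. It had 41.4, 39.9 and 41.6 CPM in DAPT + sErbB4 cultures and 43.0, 47.2 and 44.0 CPM in DAPT cultures, against 52.1, 57.6 and 54.7 CPM in sErbB4 cultures and 61.1, 61.3 and 57.6 CPM in vehicle cultures. The log2 fold change was -0.42 ± 0.05 in both comparisons (edgeR adjusted p = 1e-04 for DAPT vs vehicle and 0.00011 for DAPT + sErbB4 vs sErbB4). The 4 group means were in the order DAPT + sErbB4, DAPT, sErbB4, vehicle, and neighbours within the groups with DAPT, or within those without it, did not differ past the threshold.

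The D-type cyclins summed to 141.4 ± 1.62 CPM in DAPT + sErbB4 cultures and 152.3 ± 1.58 CPM in DAPT cultures, against 318.3 ± 40.6 CPM in sErbB4 cultures and 323.6 ± 7.15 CPM in vehicle cultures (SD, n = 3 each). Their make-up also differed, since Ccnd3 moved less than the other two. Ccnd3 held 29.0% of the sum in DAPT + sErbB4 and 29.3% in DAPT cultures, against 17.4% in sErbB4 and 18.5% in vehicle cultures, and single libraries ranged from 27.8 to 30.7% with DAPT and from 15.1 to 19.1% without. Ccnd1 held 23.9% and 23.8% with DAPT, against 29.3% and 31.3% without. Ccnd2 held 47.1% and 46.9% with DAPT, against 53.3% and 50.2% without. These shares are descriptions, with no test.

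**Figure D2:**
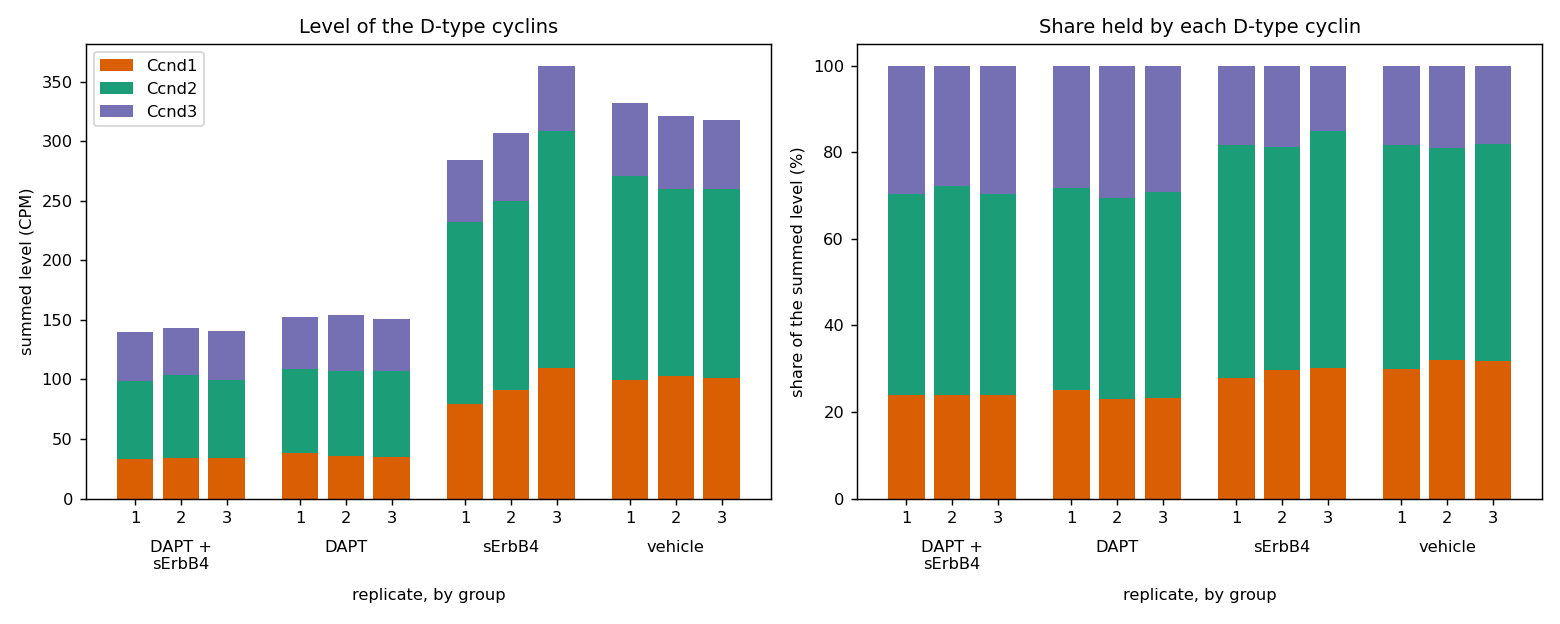
Left, the levels of Ccnd1, Ccnd2 and Ccnd3 stacked to their sum in CPM for each of the 12 libraries (x axis, replicates by group). Right, the share of that sum held by each gene, in percent. The sum lies between 140.2 and 154.0 CPM in the 6 libraries with DAPT and between 284.4 and 363.3 CPM in the 6 without, and Ccnd3 holds a larger share in the libraries with DAPT.

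The partner kinases of the D-type cyclins moved little. Cdk4 lies on the plus strand at chr10:127063534-127067920 and Cdk6 on the plus strand at chr5:3341485-3531008, both protein-coding, and the kinases they encode do the same step with much overlap in function. Their coding sequences are 69% identical. The longest run they share, again shown as the longest stretch in common, is 20 bases, shorter than the reads, so a whole read could not fit both genes there. It is in capitals within 30 coding bases of an exon of each, at chr10:127064938-127064967 and chr5:3429094-3429123 (both plus strand, GRCm38).
Cdk4: ccgtcAAGCTGGCTGACTTTGGCCTagcta
Cdk6: agataAAGCTGGCTGACTTTGGCCTtgccc

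Cdk4 was among the most abundant of the 10 genes, with 102.5, 102.1 and 106.9 CPM in DAPT + sErbB4 cultures and 104.6, 106.8 and 101.6 CPM in DAPT cultures, against 114.2, 121.4 and 121.1 CPM in sErbB4 cultures and 127.4, 131.7 and 126.6 CPM in vehicle cultures. Libraries with and without DAPT did not overlap, but the gap between them was small. Cdk4 had a log2 fold change of -0.30 ± 0.04 for DAPT vs vehicle (edgeR adjusted p = 2e-04) and -0.20 ± 0.04 for DAPT + sErbB4 vs sErbB4 (edgeR adjusted p = 0.0033). Both passed the test but stayed under the fold limit, so Cdk4 was not called.

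Cdk6 was far lower, with 2.09, 2.43 and 2.38 CPM in DAPT + sErbB4 cultures and 2.18, 2.19 and 2.19 CPM in DAPT cultures, against 2.46, 2.52 and 2.70 CPM in sErbB4 cultures and 2.58, 2.58 and 2.64 CPM in vehicle cultures. The gap between the highest library with DAPT (2.43 CPM) and the lowest without (2.46 CPM) was narrower than the range within every group but DAPT. The log2 fold change was -0.25 for DAPT vs vehicle (edgeR adjusted p = 0.25) and -0.15 for DAPT + sErbB4 vs sErbB4 (edgeR adjusted p = 0.52), neither of which passed. These levels correspond to 46 to 79 estimated counts per library. Cdk4 exceeded Cdk6 about equally in all groups, by 45.4 times in DAPT + sErbB4, 47.7 in DAPT, 46.5 in sErbB4 and 49.4 in vehicle cultures.

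The summed D-type cyclins per summed Cdk4 and Cdk6 (CPM over CPM) were 1.33 ± 0.04 in DAPT + sErbB4 and 1.43 ± 0.02 in DAPT cultures, against 2.62 ± 0.28 in sErbB4 and 2.47 ± 0.08 in vehicle cultures (SD, n = 3 each). These ratios concern transcripts and say nothing of the proteins.

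The E-type cyclins and their kinase were present at low levels. Ccne1 (chr7:38097984-38107534, minus strand) and Ccne2 (chr4:11191351-11204779, plus strand) encode cyclins E1 and E2, which activate Cdk2 at the entry to S phase, and Cdk2 lies on the minus strand at chr10:128697939-128705031. Their levels stood below 8 CPM in every library. Ccne1 and Ccne2 coding sequences are 61.46% identical, with a longest shared run of 18 bases.

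Ccne1 had 3.78, 3.58 and 2.99 CPM in DAPT + sErbB4 cultures and 3.04, 2.95 and 3.89 CPM in DAPT cultures, against 4.23, 4.56 and 6.54 CPM in sErbB4 cultures and 4.19, 5.17 and 4.37 CPM in vehicle cultures. Its log2 fold change was -0.46 ± 0.18 for DAPT vs vehicle, which did not pass (edgeR adjusted p = 0.093) except without sErbB4 replicate 3 (adjusted p = 0.036), and -0.57 ± 0.18 for DAPT + sErbB4 vs sErbB4, which did (edgeR adjusted p = 0.036). That call rested on sErbB4 replicate 3, the highest library, without which the difference was -0.35 (edgeR adjusted p = 0.13). It was also lost without any 1 of the DAPT + sErbB4 libraries, at adjusted p of 0.053 to 0.12, and with a replicate block (adjusted p = 0.051).

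Ccne2 was the least abundant of the 10 genes. It had 0.522, 0.434 and 0.427 CPM in DAPT + sErbB4 cultures and 0.429, 0.358 and 0.261 CPM in DAPT cultures, against 0.845, 0.798 and 1.47 CPM in sErbB4 cultures and 0.783, 0.562 and 0.910 CPM in vehicle cultures. These levels correspond to 8 to 36 estimated counts per library. The log2 fold change was -1.11 ± 0.37 for DAPT vs vehicle (edgeR adjusted p = 0.052, not called) and -1.16 ± 0.36 for DAPT + sErbB4 vs sErbB4 (edgeR adjusted p = 0.035, called). Without sErbB4 replicate 3 the second was -0.83 (adjusted p = 0.17), without any 1 of the DAPT + sErbB4 libraries its adjusted p was 0.074 to 0.11, and with a replicate block it was 0.059. In all, 10 of 20 alternative fits ended that call, DESeq2 (adjusted p = 0.075) and limma (-0.31 on its scale, under the fold limit) among them. Over both DAPT differences together, the mean DAPT effect was called for Ccne1 (-0.51 ± 0.13, edgeR adjusted p = 0.0073) and Ccne2 (-1.14 ± 0.26, edgeR adjusted p = 0.0047), though limma ended that of Ccne2 (-0.28 on its log2(CPM + 2) scale, under the fold limit).

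Cdk2 had 4.65, 4.52 and 4.55 CPM in DAPT + sErbB4 cultures and 5.34, 4.78 and 4.67 CPM in DAPT cultures, against 5.80, 6.89 and 6.63 CPM in sErbB4 cultures and 7.48, 6.46 and 6.64 CPM in vehicle cultures. Its log2 fold change was -0.48 ± 0.09 for DAPT vs vehicle (edgeR adjusted p = 0.0025) and -0.50 ± 0.09 for DAPT + sErbB4 vs sErbB4 (edgeR adjusted p = 0.0019). Cdk2 was called in both comparisons, and every library with DAPT was below every library without it.

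The pocket proteins differed from each other. Rb1 (chr14:73183673-73325822, minus strand) encodes the retinoblastoma protein, and Rbl1 (chr2:157145893-157204534, minus strand) encodes p107, a relative that is abundant in dividing cells and whose gene is itself an E2F target. Rb1 had 18.4, 19.5 and 19.3 CPM in DAPT + sErbB4 cultures and 19.2, 18.2 and 20.2 CPM in DAPT cultures, against 19.6, 19.3 and 17.9 CPM in sErbB4 cultures and 20.6, 19.4 and 21.5 CPM in vehicle cultures. All groups overlapped. Rb1 had a log2 fold change of -0.09 for DAPT vs vehicle and 0.01 for DAPT + sErbB4 vs sErbB4 (edgeR adjusted p = 0.27 and 0.92), and the 95% interval of the mean DAPT effect ran from -0.13 to 0.04.

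Rbl1 had 1.22, 1.01 and 1.67 CPM in DAPT + sErbB4 cultures and 1.40, 1.34 and 1.14 CPM in DAPT cultures, against 2.42, 2.23 and 2.17 CPM in sErbB4 cultures and 1.76, 2.02 and 2.09 CPM in vehicle cultures. The highest DAPT + sErbB4 library, replicate 3, came close to the lowest vehicle library. In DAPT comparisons Rbl1 had a log2 fold change of -0.80 ± 0.19 for DAPT + sErbB4 vs sErbB4 (edgeR adjusted p = 0.01) and -0.60 ± 0.20 for DAPT vs vehicle (edgeR adjusted p = 0.048). That second call was marginal and was lost in 17 of 20 alternative fits, at adjusted p up to 0.16 and of 0.077 with a replicate block. The mean DAPT effect was -0.70 ± 0.14 (edgeR adjusted p = 0.0019). Rbl2, which encodes p130, the pocket protein of resting cells, was 21.8 ± 0.99 CPM in DAPT + sErbB4 and 22.6 ± 0.96 CPM in DAPT cultures, against 18.6 ± 0.65 CPM in sErbB4 and 18.7 ± 0.35 CPM in vehicle cultures. Its mean DAPT effect of 0.25 ± 0.03 passed the test (edgeR adjusted p = 0.00011) but not the fold limit.

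**Figure D3:**
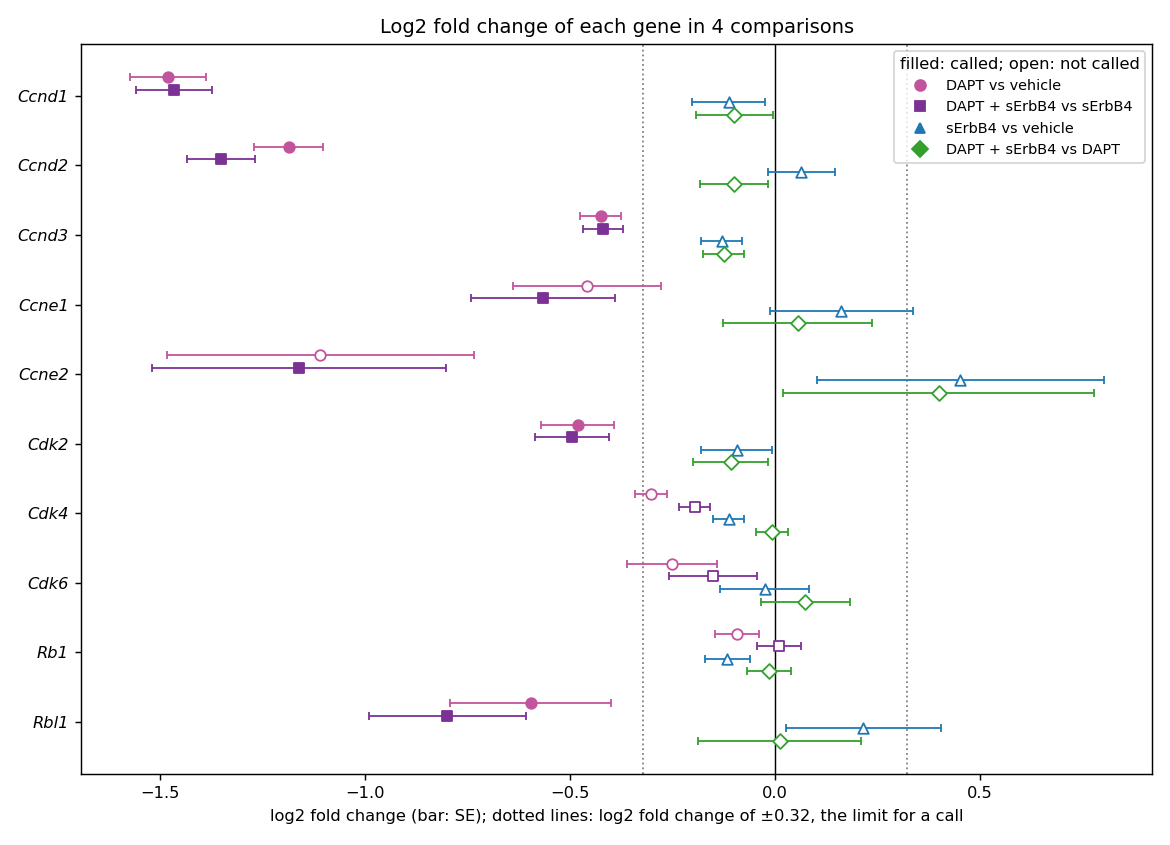
Log2 fold change of each gene (x axis, bars are SE) in the DAPT vs vehicle, DAPT + sErbB4 vs sErbB4, sErbB4 vs vehicle and DAPT + sErbB4 vs DAPT comparisons. Filled symbols are called and dotted lines mark a log2 fold change of 0.32 in size, the limit for a call. Both DAPT comparisons lie below 0 for all genes but Rb1, lowest for Ccnd1 at -1.48 and -1.47, and no symbol of the sErbB4 comparisons is filled.

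No difference of these genes between cultures with and without sErbB4 passed the test. For sErbB4 vs vehicle, the edgeR test called 0 of the 10, against 0.0319% of all genes (5 genes), and 2 of the 10, Ccnd3 and Cdk4, had an unadjusted p under 0.05. For DAPT + sErbB4 vs DAPT, it called 0 of the 10, against 0% of all genes, and Ccnd3 alone had an unadjusted p under 0.05. DESeq2 and limma also called none of the 10 in either comparison, though DESeq2 called 18 and 9 of all genes. Ccnd3 was -0.13 in each of the comparisons on the log2 scale (edgeR adjusted p = 0.6 for sErbB4 vs vehicle and 0.5 for DAPT + sErbB4 vs DAPT). For Ccnd1 the 95% interval of sErbB4 vs vehicle was -0.31 to 0.08, and for Ccnd2 it was -0.11 to 0.24. For the scarce Ccne2 it was -0.32 to 1.22, so the interval reached 2.33 times higher.

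The DAPT difference was also compared between cultures with and without sErbB4, as an interaction. The edgeR test called 0 of the 10 genes, none of which had an unadjusted p under 0.05, against 0.00639% of all genes called (1 gene). DESeq2 and limma called none of the 10 either. The estimate for Ccnd1 was 0.01 (95% interval -0.27 to 0.30), for Ccnd2 -0.16 (-0.42 to 0.09) and for Ccnd3 0.00 (-0.15 to 0.16). Where the study set sErbB4 against DAPT, 6 of the 10 were called higher in sErbB4 cultures, against 6.04% of all genes. They were Ccnd1 (2.58 times higher), Ccnd2 (2.38), Ccne1 (1.54), Ccne2 (2.95), Cdk2 (1.31) and Rbl1 (1.76), and this comparison shares its libraries with those above. The calls of Ccne1 (adjusted p = 0.092) and Ccne2 (adjusted p = 0.056) ended without sErbB4 replicate 3, that of Ccne1 also without DAPT replicate 1 or 2 or with only the libraries compared (adjusted p of 0.072 to 0.093), those of Ccne2 and Rbl1 without DAPT replicate 3 (adjusted p = 0.053 and 0.051), and that of Cdk2 by limma (0.31 on its log2 scale, under the fold limit).

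For the mean DAPT effect, 7 of the 10 genes were called lower, and none higher, against 7.7% and 5.54% of all genes, with a median of -0.50 beside 0.01 over all genes. The same libraries gave the levels of other genes, in this pathway and outside it, from lists also chosen with earlier results of these data known. Of 17 E2F target genes of S phase, 14 were called lower and 0 higher, all 17 estimates were negative, and their median was -0.54. Rrm2, the small subunit of ribonucleotide reductase, was 9.98 ± 0.54 CPM in DAPT + sErbB4 and 9.24 ± 0.80 CPM in DAPT cultures, against 22.7 ± 1.47 CPM in sErbB4 and 23.2 ± 1.26 CPM in vehicle cultures (log2 fold change -1.26, edgeR adjusted p = 1e-08). The helicase subunits Mcm5 (-1.19) and Mcm2 (-0.73) also fell.

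Among 9 genes of Cdk activation, 5 were called lower, with a median of -0.37. They include the cyclins of S phase and mitosis, Ccna2 (-1.49 ± 0.09, edgeR adjusted p = 1.6e-07) and Ccnb1 (-1.47 ± 0.08, edgeR adjusted p = 1.4e-07). The subunits of the Cdk-activating kinase in this list, Cdk7, Ccnh and Mnat1, were not called (-0.03, -0.11 and 0.04). Of 10 E2F factors and partners, 3 were called lower (E2f2, E2f7 and E2f8, named after their values were seen and each under 3 CPM), with a median of -0.26, while E2f1, an activating factor at 5.57 CPM, was at -0.01. Another list held 7 genes, for Rbl2 and for subunits or partners of the DREAM and MuvB complexes, which regulate cell cycle genes. Of these, 2 were called lower (Lin9 and Mybl2, named after their values were seen), with a median of 0.09.

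Among 7 Cdk inhibitors, 2 were called lower and 0 higher, against 7.7% and 5.54% of all genes. Their median was -0.17, with 2 estimates positive and 5 negative, in a range of -0.48 to 0.16. Cdkn2c, which encodes the Cdk4 and Cdk6 inhibitor p18, was 12.9 ± 0.96 CPM in DAPT + sErbB4 and 12.6 ± 1.66 CPM in DAPT cultures, against 17.6 ± 1.23 CPM in sErbB4 and 17.8 ± 1.63 CPM in vehicle cultures (log2 fold change -0.48, edgeR adjusted p = 0.00023). Cdkn1a, which encodes p21, was 78.4 ± 1.73 CPM in DAPT + sErbB4 and 80.4 ± 2.28 CPM in DAPT cultures, against 102.4 ± 0.66 CPM in sErbB4 and 97.3 ± 3.70 CPM in vehicle cultures (log2 fold change -0.33, edgeR adjusted p = 2.9e-06).

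Of 11 genes for the turnover of cyclins and inhibitors, 10 were tested and 3 were called lower, with a median of -0.07. Cks2, a small Cdk-binding subunit, was at -0.77. A further list of 11 genes, the receptor Notch1 and transcription regulators, was drawn up as possible upstream regulators of D-type cyclins. Of these, 10 were tested and 3 were called lower (Notch1, Hes1 and Hes5), with a median of -0.09. Whether they act on the D-type cyclins in these cultures was not tested. Notch1, a γ-secretase substrate, was 26.1 ± 0.46 CPM in DAPT + sErbB4 and 27.6 ± 1.24 CPM in DAPT cultures, against 35.3 ± 6.48 CPM in sErbB4 and 38.3 ± 2.41 CPM in vehicle cultures (log2 fold change -0.45, edgeR adjusted p = 0.00048). Hes1 and Hes5, direct Notch targets named here after their values were seen, were at -1.92 and -1.90. Myc and Mycn were not called (0.11 and -0.10). None of 10 cyclins and kinases that work outside the cell cycle was called in either direction (7 estimates were positive and 3 negative), with a median of 0.03 and a range of -0.22 to 0.20. This list holds Cdk5, the neuronal kinase of this family.

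**Figure D4:**
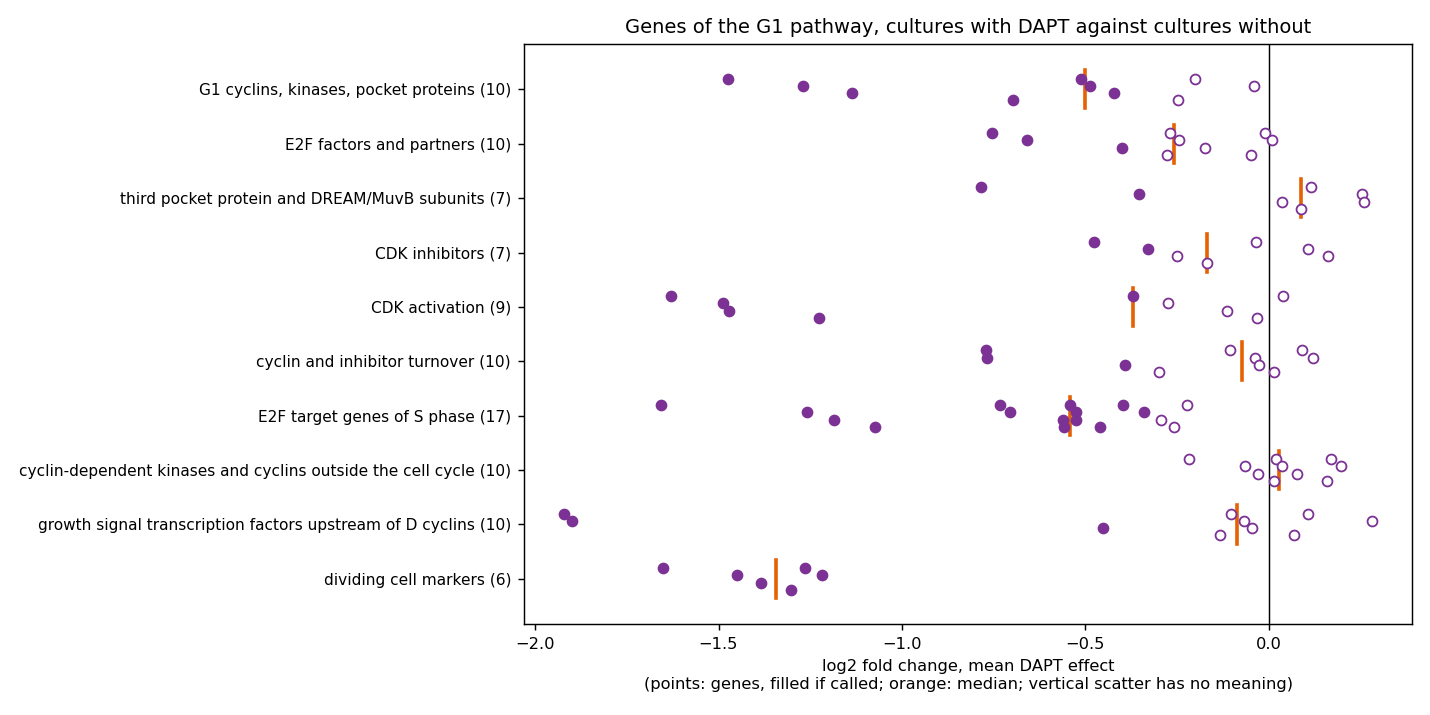
Log2 fold change for the mean DAPT effect (x axis) of the 10 genes, of 8 other gene lists and of the dividing cell markers. Rows give the number tested, with 1 point per gene, filled where called. Orange lines are medians, at -0.50 for the 10 genes, -0.54 for E2F targets and 0.03 for cyclins and kinases outside the cell cycle.

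Markers of cell types moved in the same libraries. For the mean DAPT effect, 7.7% of all genes tested were called lower and 5.54% higher. All 6 dividing cell markers were called lower with DAPT (mean DAPT effect), and their summed level was 22.8 to 24.2 CPM in DAPT + sErbB4 and 24.99 to 26.8 CPM in DAPT cultures, against 57.2 to 64.2 CPM in sErbB4 and 61.2 to 66.9 CPM in vehicle cultures. Of 5 oligodendrocyte precursor markers, 4 were called lower, with sums of 404 to 419 CPM in DAPT + sErbB4 and 418 to 453 CPM in DAPT cultures, against 876 to 974 CPM in sErbB4 and 950 to 962 CPM in vehicle cultures. Of 6 radial glia and neural stem cell markers, 3 were called lower (Fabp7 -1.89, Nes -0.63 and Slc1a3 -0.43) and the other 3 had positive estimates that were not called (Vim 0.10, Sox2 0.11 and Hopx 0.02). Their sums were 2751 to 2865 CPM in DAPT + sErbB4 and 2972 to 3128 CPM in DAPT cultures, against 4717 to 5204 CPM in sErbB4 and 5043 to 5514 CPM in vehicle cultures. Most of that gap was Fabp7, which encodes a brain lipid-binding protein, with means of 748 CPM in DAPT + sErbB4 and 749 CPM in DAPT cultures, against 2707 CPM in sErbB4 and 2860 CPM in vehicle cultures. Neuron markers summed to 1357 to 1418 CPM in DAPT + sErbB4 and 1241 to 1303 CPM in DAPT cultures, against 1176 to 1273 CPM in sErbB4 and 1087 to 1150 CPM in vehicle cultures, with 2 of 6 called higher. Of their estimates 5 were positive, and that of Tubb3 was -0.13 (edgeR adjusted p = 0.0098), under the fold limit. Of 6 pericyte, smooth muscle and fibroblast markers, 3 were called lower (Tagln -1.17, Rgs5 -0.80 and Col1a1 -0.77) and Dcn was called higher (0.60), with sums of 51.8 to 57.3 CPM in DAPT + sErbB4 and 60.7 to 65.5 CPM in DAPT cultures, against 64.8 to 72.6 CPM in sErbB4 and 69.6 to 77.5 CPM in vehicle cultures. Astrocyte markers summed to 5828 to 6083 CPM in DAPT + sErbB4 and 6173 to 6566 CPM in DAPT cultures, against 4989 to 5212 CPM in sErbB4 and 5261 to 5978 CPM in vehicle cultures, with Gja1 called higher (0.61), Aldh1l1 lower (-0.61) and the other 4 not called. One marker was called lower in each of the microglia (Cx3cr1 -1.15, of 5), oligodendrocyte (Mag -0.47, of 5) and intermediate progenitor lists (Eomes -0.72, of 4), and none of the 3 endothelial markers tested was called. No marker of these lists was at 0 in any group. The part of these shifts in the differences of the G1 genes was not tested.

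The 10 genes were also compared by their pattern over the 12 libraries, as Pearson correlations of log2 CPM given as descriptions. The libraries differ in treatment and depth, so genes that differ with DAPT correlate over them whatever else they share. Ccnd1 and Ccnd2 were closest to each other (r = 0.992), whereas Rb1 reached at most 0.323 with any other of the 10. Among genes of at least 5 CPM, those most like Ccnd1 were Dusp6 (0.996), which encodes a phosphatase of ERK and is induced by ERK signaling, Crot and Olig1, a factor of the oligodendrocyte lineage. Those most like Ccnd2 were Adcyap1r1 (0.996), the receptor for the peptide PACAP, Kcnip3 and Igfbp4. Ccnd3 was most like Lhx2 (0.989), a transcription factor of cortical and hippocampal precursors, Cdc42se1 and Mmp15. For the others, the closest were Snx18, Slc39a1 and Lims1 for Cdk2 (0.984 to 0.981), Ifitm2, Slc39a1 and Cdc42se1 for Cdk4 (0.976 to 0.973), Clpb, Mrps22 and Hapln1 for Ccne1 (0.937 to 0.925), Shmt2, Mars1 and Epb41l1 for Ccne2 (0.926 to 0.925), Dnaja3, Ripor2 and Prkar2a for Cdk6 (0.953 to 0.945), Lrrc47, Haus7 and Dagla for Rbl1 (0.960 to 0.942), and Arhgap42, Tlr3 and Emp3 for Rb1 (0.918 to 0.835).

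Promoters from RefSeq (GRCm38.p6, 250 bases before to 50 after the start) matched 6 of the 10 genes: Ccnd3 (2 promoters), Ccne1, Cdk2, Cdk4, Cdk6 and Rbl1. They were searched on both strands for the E2F motif (TTTCCCGC, TTTCGCGC, TTTGCCGC or TTTGGCGC), the E-box CACGTG, the RBPJ motif GTGGGAA through which Notch acts, the AP-1 motif TGACTCA and the CRE TGACGTCA. On one strand the first E2F spelling and the RBPJ motif share the letters GGGAA. An E2F motif was in the promoters of Cdk2 and Rbl1, and in 2.26% of all 32851 promoters of this length. These matches are shown as the only E2F matches in the 7 promoters searched. The promoters of Ccnd3 and Ccne1, genes also called lower for the mean DAPT effect, held none of these spellings. Capitals mark the motif in 30 bases, at chr10:128705173-128705202 (minus strand, motif on the opposite strand, its first base 140 before the start) and chr2:157204534-157204563 (minus strand, 18 before the start).
Cdk2: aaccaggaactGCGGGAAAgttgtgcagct
Rbl1: aagaaggcgatTTTCGCGCgctttgtcgcg

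The E-box, a motif of Myc and related factors, was in the promoters of Cdk4 (4 times) and Cdk6 (once), and in 7.15% of all promoters. Shown is the Cdk4 match that lies farthest from the start, 172 bases before it, at chr10:127063352-127063381 (plus strand), and the match of Cdk6, 220 bases before the start, at chr5:3343662-3343691 (plus strand), with the motif in capitals.
Cdk4: tggcagccagtCACGTGccacacagcgtaa
Cdk6: ttctgcggcccCACGTGggtgaacccccgg
None of the 7 promoters held the RBPJ, AP-1 or CRE letters, which are in 6.38%, 5.2% and 1.79% of all promoters. At such shares, 7 promoters are too few to show that a motif is lacking. Ccnd1, Ccnd2, Ccne2 and Rb1 had no promoter in the set and were not searched. A match is a string of letters in a window, and no binding was measured.

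Some of these genes overlap a gene on the opposite strand. Strand is not given for the counting in the sources used here, so whether reads from such stretches were told apart is not known. Of the exonic bases of Ccnd1, 23.36% are shared with LTO1, of Cdk4 19.73% with Tspan31, of Ccne2 17.42% with Ints8 and of Rb1 14.9% with Lpar6 and Rcbtb2. The share was 7.87% or less for the other 6 genes and 0 for Ccne1 and Rbl1. LTO1 was 13.1 ± 0.42 CPM in DAPT + sErbB4 and 12.1 ± 0.79 CPM in DAPT cultures, against 12.1 ± 0.10 CPM in sErbB4 and 11.4 ± 1.20 CPM in vehicle cultures, and was not called in any comparison, unlike Ccnd1. Tspan31 was not called either (mean DAPT effect -0.12). Ints8, with a mean of 10.2 CPM against 0.65 CPM for Ccne2, was at -0.26 for that effect (edgeR adjusted p = 0.007), under the fold limit. In sErbB4 vs DAPT, Ints8 was called higher (0.33, edgeR adjusted p = 0.023), as was Ccne2. Rcbtb2 had a mean DAPT effect of -0.23 (edgeR adjusted p = 0.0018), also under the fold limit. Lpar6, at 3 to 7 CPM per group, was called lower with DAPT (-0.82 ± 0.10, edgeR adjusted p = 5.4e-05).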

How the data were processed

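Poly-A RNA of 12 cultures was sequenced as 75-base paired reads. Per the study's methods and the submitters' processing notes, the authors trimmed reads (Trimmomatic), aligned them to mm10 (HISAT2), assembled transcripts (StringTie) and took gene values with IsoformSwitchAnalyzeR. Versions are not given in the sources used here. The authors deposited estimated counts per gene, not normalized between libraries. All values under 5 are multiples of 1 step per library (tolerance 0.01 of a step), and over 12534 genes they did not rise with transcript length (Spearman -0.0854). Of 21312 loci, 1976 had no gene name and held 43.4 to 51.8% of counts. They entered neither library sizes nor tests.

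Counts were rounded and tested with edgeR 4.0.16 in R 4.3.3 (filterByExpr, TMM, 1 mean per group over all 12 libraries, 8 residual degrees of freedom, quasi-likelihood). Adjusted p-values are over all 15656 genes. SE is the absolute log2 fold change over the square root of F. edgeR keeps p from falling below a Poisson limit, so p for Cdk6 is larger than its SE implies, and no interval is given for it. Alternatives were DESeq2 1.42.0, limma 3.58.1 on log2(CPM + 2) with cyclic loess, RLE factors, no filter, only the libraries compared, unnamed loci kept, Rn45s left out, a replicate block, and each library left out. Statistical scripts were tested on simulated data. Libraries are separate platings, and p-values measure the spread between them only.

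The 10 genes and the lists were chosen with earlier results of these data known. All 10 genes are given. From each list, the genes named are the 3 called with the largest mean DAPT effect at 5 CPM or more, with Rbl2 always named, and for each of the 10 genes the 3 closest by correlation. Other list genes were named after their values were seen.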

Additional observations from a re-analysis of the deposited data

How the results depend on the processing

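The calls for Ccnd1, Ccnd2, Ccnd3 and Cdk2 in both DAPT comparisons, and of Rbl1 in DAPT + sErbB4 vs sErbB4, kept their side of the threshold in every alternative run. Of 19 member calls in the DAPT comparisons and the mean DAPT effect, 15 did so, none changed sign, and the replicate block ended 3, those of Ccne1, Ccne2 and Rbl1 given with the results. Replicate numbers showed no clear pairing of the libraries. After group means were taken out, 18 same-numbered pairs correlated at -0.67 to 0.60 (median 0.034, 8 over 0.1). Of 12 libraries, 5 were closest to their own number. With 3 libraries per group, this check cannot exclude litters shared between libraries of the same number. With the replicate block, 1750 genes were called for DAPT vs vehicle and 1778 for DAPT + sErbB4 vs sErbB4 (1813 and 1832 without). limma ended the call of Ccne2 for the mean DAPT effect (-0.28 on its scale, under the fold limit). Ccnd3 for sErbB4 vs DAPT passed the fold limit without sErbB4 replicate 1 (0.33) and without DAPT replicate 2 (0.33).

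Genes called moved for sErbB4 vs vehicle (5, against 18 by DESeq2, 2 with the replicate block, 0 with only the libraries compared, 1 to 5 leaving out a library), DAPT + sErbB4 vs DAPT (0, with 1442 at an unadjusted p under 0.05, against 9 by DESeq2, 2 with only the libraries compared, 0 to 2 leaving out a library), the mean DAPT effect (2072, against 1375 by limma) and the interaction (1, against 4 by DESeq2, 1 to 3 leaving out a library). The cause was not tested. Leaving out a library gave 1525 to 1857 for DAPT vs vehicle, 1627 to 2002 for DAPT + sErbB4 vs sErbB4, 1380 to 1813 for sErbB4 vs DAPT and 1928 to 2223 for the mean DAPT effect.

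Signs changed only for differences near 0, none of them called. Leaving out a library gave, as log2 fold changes, -0.027 to 0.034 for Rb1 in DAPT + sErbB4 vs sErbB4. In sErbB4 vs vehicle it gave -0.062 to 0.13 for Ccnd2, -0.049 to 0.28 for Ccne1 and -0.064 to 0.0025 for Cdk6. In DAPT + sErbB4 vs DAPT it gave -0.014 to 0.19 for Ccne1, -0.041 to 0.010 for Cdk4, -0.049 to 0.012 for Rb1 and -0.23 to 0.17 for Rbl1, which was also -0.0045 with unnamed loci kept. In sErbB4 vs DAPT it gave -0.059 to 0.013 for Rb1. For the interaction it gave -0.092 to 0.15 for Ccnd1, -0.038 to 0.045 for Ccnd3, -0.22 to 0.11 for Ccne1, -0.25 to 0.28 for Ccne2 and -0.083 to 0.041 for Cdk2. There Ccnd1 was -0.011 with unnamed loci kept and -0.0026 without Rn45s, Ccnd3 was -0.00071 with RLE, -0.0011 by DESeq2, -0.0073 by limma, -0.020 with unnamed loci kept and -0.012 without Rn45s, and Cdk2 was 0.0046 by limma.

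Estimated counts were fewest for Ccne2 (8 to 36 per library), Rbl1 (28 to 70) and Cdk6 (46 to 79). Since the values behave as corrected for transcript length, they are not numbers of reads.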
